A study of Mus musculus with 4 samples.

Results

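Adipokines are hormones and other proteins that fat cells secrete, and adipocyte identity genes are those whose expression marks a fat cell. The 10 genes described here, Adipoq, Cfd, Lep, Retn, Cidec, Cidea, Pck1, Cyp2e1, Pparg and Adrb3, were taken from a list of known adipocyte genes and matched by symbol to the Ensembl identifiers of the counts. They are 10 of 50686 genes counted in the hip libraries and 10 of 54838 in the knee libraries, and the list was drawn up with earlier results of these data known. All 10 had counts in all 4 libraries and at least 10 counts over each pair.

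RNA from joint cartilage of male mice was sequenced as poly-A libraries, 1 per condition and joint, so the series holds 4 libraries and no replicates. The hip control came from mice with genotype Cbfβf/f, without Cre and labelled as untreated. The other hip library came from tamoxifen-injected Cbfβf/f;Col2α1-CreERT mice. The age of the hip mice was described both as 6 weeks and as 2 months. Both knee libraries came from 12-week-old Cbfβf/f;Aggrecan-CreERT mice, 1 injected with oil as the control and 1 with tamoxifen. By the labels all mice thus carried the floxed Cbfb allele, and the hip pair differs also in Cre and tamoxifen. The study's text also calls the hip control wild type. Both Cre lines act in chondrocytes. By the study's account Col2a1 is also expressed in perichondrium, presumptive joint cells and skeletal mesenchymal cells. Whether either line acted in cells of the fat lineage was not tested. The hip tissue was described as cartilage alone and the knee tissue as cartilage with bone, while the labels' extraction note speaks of osteoblasts. The study states a group size for its experiments in general, but how many mice gave each library is not given in the sources used here.

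In fat tissue, the transcription factor PPARγ drives the genes that make a fat cell store triglyceride in lipid droplets. The fat cell reports its state through adipokines, among them leptin, which signals energy stores to the brain, and adiponectin, which raises insulin sensitivity. Catecholamines acting on the β3-adrenergic receptor release the stored fat, and in brown fat they also start heat production. Fat pads and bone marrow adipocytes lie close to joint cartilage. In bulk RNA, fewer fat cells and less RNA per fat cell cannot be told apart.

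The largest contrast among the 10 genes in the hip was between Lep and Retn, which encode leptin and resistin, so the 250 bases before their RefSeq start sites are printed here (build GRCm38.p6, plus strand, 5′ to 3′). They were searched on both strands for 4 motifs, chosen with the sequences in view. These were TGTGGT for the RUNX proteins, whose DNA binding Cbfβ assists, AGGTCA for nuclear receptors such as PPARγ, TTGCGCAA for C/EBP proteins and TATAAA for the TATA box. Capitals mark a match.
Lep, chr6:29059971-29060220: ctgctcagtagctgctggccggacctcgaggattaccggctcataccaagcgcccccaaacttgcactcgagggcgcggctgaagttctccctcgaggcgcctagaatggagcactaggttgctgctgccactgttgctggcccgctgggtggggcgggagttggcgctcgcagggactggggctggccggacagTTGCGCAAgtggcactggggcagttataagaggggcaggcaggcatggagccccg
Retn, chr8:3655520-3655769: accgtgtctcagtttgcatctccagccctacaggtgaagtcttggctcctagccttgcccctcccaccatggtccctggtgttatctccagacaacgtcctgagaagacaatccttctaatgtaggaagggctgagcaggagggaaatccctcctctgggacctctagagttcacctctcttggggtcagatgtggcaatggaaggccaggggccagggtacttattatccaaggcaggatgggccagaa

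The match in the Lep window is TTGCGCAA, from position -55 to -48 relative to the start. Those letters occur in 0.164% of 32851 windows of the same length before RefSeq starts. None of the 4 motifs was found in the Retn window. RefSeq windows matched 8 of the 10 genes, with 11 windows in all, and Cidea and Adrb3 had none. TGTGGT was found in 1 of the 11 windows, that of Pck1, and in 14.05% of the 32851 windows. AGGTCA was found in 2 of the 11, both of Pparg, and in 14.02% of the larger set. TATAAA was found in 2 of the 11, for Cyp2e1 and Pparg, and in 12.4% of the larger set. A match of letters is a description and not a binding site.

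Counts on genes ranged from 34264456 to 38473120 per library. TMM scaling (edgeR) was applied within each pair. Log2 ratios divide the library labelled Cbfb-deficient by its control, after 0.5 was added to each count. The 95% intervals cover counting error alone, since reads without molecular identifiers are not independent molecules and no library has a replicate. Genes with 10 or more counts in the pair summed were tested, and a change was called where the log2 ratio reached 1 or -1 and its interval left out 0. No p-value can be given with 1 library per condition. Cbfb itself, the targeted gene, had 66.2 and 85.2 CPM (its count scaled to the total of its library) in the hip control and the hip library labelled Cbfb-deficient, and 111 and 120 CPM in the knee libraries. Its log2 ratio was 0.41 in the hip (-0.27 once a drift of all ratios with transcript length and GC content was subtracted). It was -0.07 in the knee (0.11 when scaled by library size alone). Whole-gene counts thus did not show the deletion, and the libraries are named by their labels throughout. The study itself reports lower Cbfβ protein by western blot in hip cartilage of both lines after tamoxifen. It also reports loss of Cbfβ by staining of knee cartilage. Those are measures of protein, and the counts here are of RNA.

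The cartilage label was checked against 14 chondrocyte markers, of which none was at 0 in any library. They made up 0.0258% of the hip control and 0.0104% of the hip library labelled Cbfb-deficient, against 0.606% and 0.308% in the knee. Skeletal muscle markers (10 genes) took 13.1% and 12.6% in the hip, against 1.07% and 2.19% in the knee. Erythroid markers (9 genes found) took 0.589% and 0.222% in the hip, against 9.99% and 4.94% in the knee. The hip libraries therefore held far more muscle than chondrocyte marker RNA, and the knee libraries more blood and chondrocyte marker RNA than the hip.

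The 10 adipocyte genes together had 122 CPM in the hip control and 274 CPM in the hip library labelled Cbfb-deficient. In the knee they had 351 CPM in the control and 756 CPM in the library labelled Cbfb-deficient. The sum was higher in the library labelled Cbfb-deficient of each joint. Cfd was the largest part of it, with 48.7% and 51.6% of the sum in the hip, against 65.4% and 66.0% in the knee. Hip and knee tables list different sets of gene identifiers, and their names point to different counting programs, so levels set side by side across joints may carry such differences.

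In the hip pair, 6 of the 10 genes changed. Retn, Cyp2e1, Pck1 and Cfd rose, and Lep and Cidea fell. Over all 19856 genes tested in the hip, 20.2% rose and 16.3% fell by the same rule. The share that changed was large in this pair, and 4 rises and 2 falls among 10 genes are to be read beside it. The list was drawn up with earlier results known, and the study names Retn and Cyp2e1 among its most raised hip genes. Setting the 10 genes beside all genes is therefore no test of the list, in either joint. In the knee pair, 5 of the 10 genes rose and none fell. These were Cidea, Adrb3, Lep, Pck1 and Cidec. The background in the knee was 9.00% of 21131 genes higher and 6.81% lower, and with scaling by library size alone it was 12.3% higher and 4.96% lower. That scaling moved the median log2 ratio of all knee genes from 0.02 to 0.20. Counting intervals lay above 0 for all 10 genes in the knee, where 31.9% of all tested genes had such an interval and 29.7% had one below 0. In the hip 6 genes had an interval above 0 and 2 below, against 37.3% and 33.7% of all tested genes.

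The log2 ratios of all genes drifted with transcript length and with GC content, so they were also computed with that drift subtracted, which is called removal of the length and GC trend here. By those ratios 4 of the 10 genes rose and 1 fell in the hip (background 13.6% higher and 15.5% lower), and 6 rose and none fell in the knee (9.29% and 5.29%). With scaling by library size alone 4 rose and 2 fell in the hip (19.5% and 17.1%), and 6 rose and none fell in the knee. Cidea in the hip and Cfd in the knee account for these shifts, described with each gene.

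**Figure D1:**
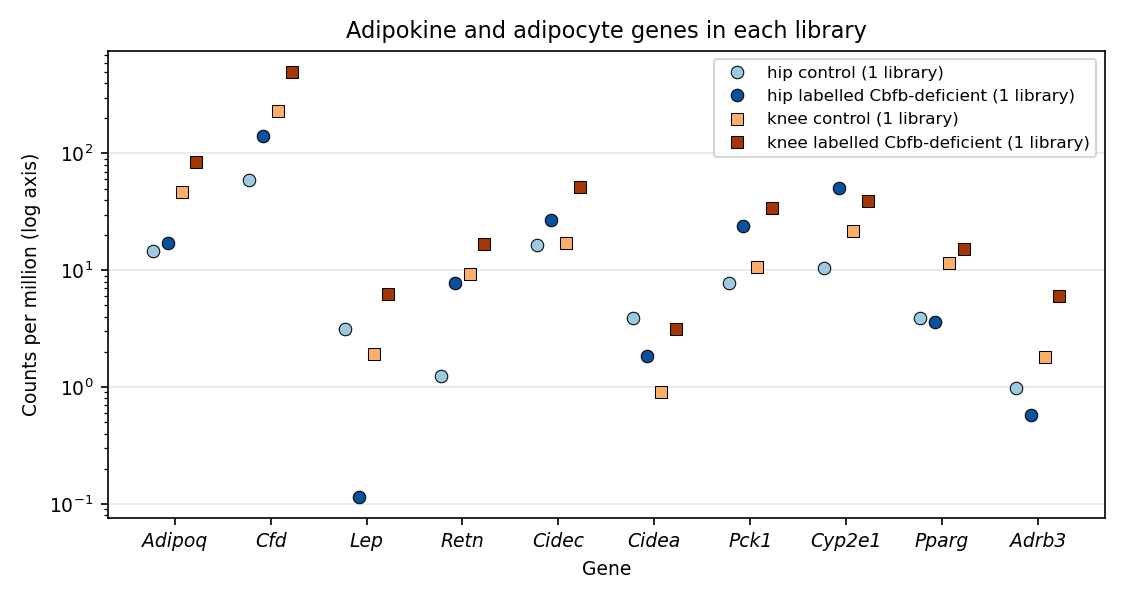
CPM (log axis) of the 10 adipocyte genes (horizontal axis), with 1 point per library and no error bars because each condition has 1 library. Lep stands at 0.116 CPM in the hip library labelled Cbfb-deficient, below its level in the other 3 libraries, while Cfd is the highest gene in all 4.

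**Figure D2:**
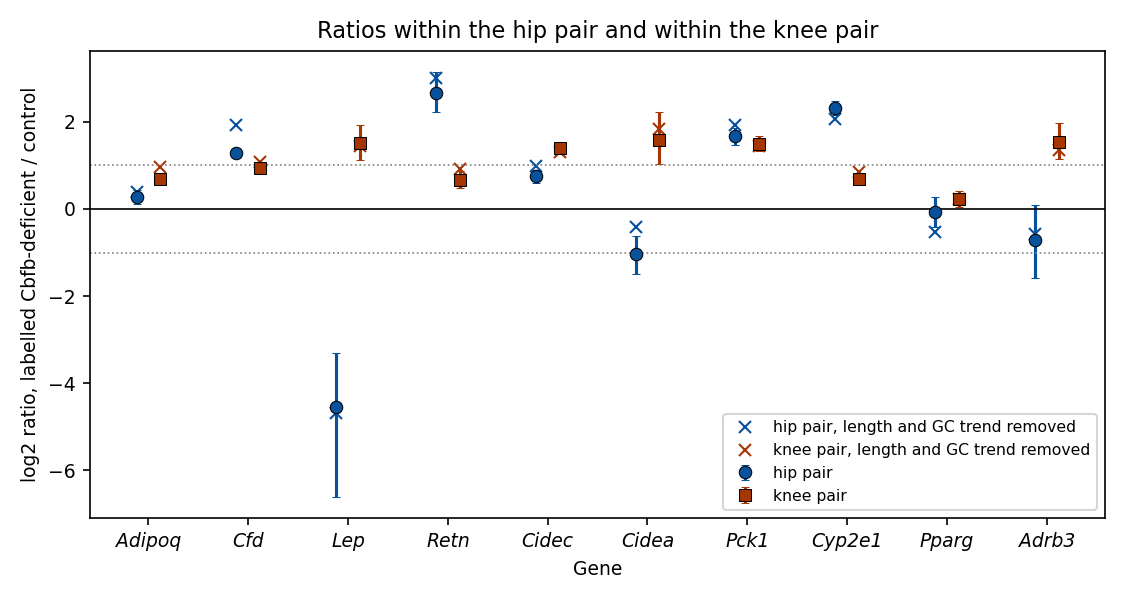
Log2 ratio of the library labelled Cbfb-deficient to its control (vertical axis) for the 10 genes, hip as circles and knee as squares, with 95% counting intervals as bars, and crosses for the ratio after removal of the length and GC trend. Dotted lines mark a log2 ratio of 1 and -1, and Lep and Cidea lie below 0 in the hip and above 0 in the knee.

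Adiponectin, encoded by Adipoq (ENSMUSG00000022878, chromosome 16 of GRCm39, 22964106 to 22976810), is made almost only by adipocytes. It had 559 counts in the hip control and 590 in the hip library labelled Cbfb-deficient, or 14.5 and 17.1 CPM. The log2 ratio was 0.28 (95% counting interval 0.11 to 0.45), above 0 but well under the size for a changed gene. In the knee it had 1594 and 3231 counts, or 46.5 and 84.5 CPM, and a log2 ratio of 0.68 (0.59 to 0.77). Adipoq was thus nearly level in the hip and 1.60-fold higher in the knee.

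Leptin, encoded by Lep (ENSMUSG00000059201, chromosome 6, 29060216 to 29073877), is secreted in proportion to fat mass and falls in fasting. The hip control had 120 counts and the hip library labelled Cbfb-deficient had 4, or 3.12 and 0.116 CPM. That is a log2 ratio of -4.55 (95% counting interval -6.61 to -3.32), or 23.3-fold lower. Since 3 counts were taken as the floor, the lower library was close to the limit of detection. In the knee, Lep had 66 counts in the control and 240 in the library labelled Cbfb-deficient, or 1.93 and 6.28 CPM, a log2 ratio of 1.52 (1.12 to 1.94). Lep thus fell in the hip pair and rose in the knee pair.

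Resistin, encoded by Retn (ENSMUSG00000012705, chromosome 8, 3705324 to 3710689), is a cysteine-rich hormone that in mice comes mainly from fat cells and opposes insulin action. Its hip counts were 48 in the control and 267 in the library labelled Cbfb-deficient, or 1.25 and 7.72 CPM. Its log2 ratio was 2.66 (95% counting interval 2.23 to 3.15), a 6.33-fold rise and the largest among the 10 genes. In the knee, counts were 316 and 640, or 9.22 and 16.7 CPM, with a log2 ratio of 0.68 (0.48 to 0.88). Lep and Retn, both fat cell hormones, therefore went opposite ways in the hip and were both higher in the knee library labelled Cbfb-deficient.

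Cfd (ENSMUSG00000061780, chromosome 10, 79726668 to 79728496) encodes adipsin, a serine protease of the alternative complement pathway and the most abundant of these adipokines. It had 2284 and 4890 counts in the hip, or 59.4 and 141 CPM, and a log2 ratio of 1.30 (1.22 to 1.37). In the knee it had 7873 and 19052 counts, or 230 and 498 CPM, and a log2 ratio of 0.94 (0.90 to 0.97). The knee ratio fell just short of the size for a changed gene. It passed with library size scaling (1.12) and after removal of the length and GC trend (1.09).

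The CIDE proteins sit where lipid droplets touch and pass lipid from the smaller to the larger droplet. Cidec (ENSMUSG00000030278, chromosome 6, 113400691 to 113412721) serves the single large droplet of white fat. It had 637 and 934 counts in the hip, or 16.6 and 27.0 CPM, a log2 ratio of 0.75 (0.60 to 0.90). Its knee counts were 590 and 1968, or 17.2 and 51.5 CPM, a log2 ratio of 1.40 (1.27 to 1.53). Cidec was thus higher in both libraries labelled Cbfb-deficient, with a change called in the knee.

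Cidea (ENSMUSG00000024526, chromosome 18, 67476317 to 67501224) is best known from brown and beige fat. It fell in the hip from 151 to 64 counts, or 3.92 to 1.85 CPM, a log2 ratio of -1.03 (-1.49 to -0.61). After removal of the length and GC trend that ratio was -0.40, with an interval of -0.85 to 0.02, and the call was lost. In the knee Cidea rose from 31 to 120 counts, or 0.905 to 3.14 CPM, a log2 ratio of 1.60 (1.03 to 2.23). A long noncoding gene on the other strand, B430212C06Rik, shares 379 of the 2238 exon bases of Cidea, and the strand setting of the counting is not given in the sources used here. In the hip that gene had 41 and 13 counts, against 103 and 82 in the knee.

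Among the enzymes, Pck1 (ENSMUSG00000027513, chromosome 2, 172994744 to 173001066) encodes cytosolic phosphoenolpyruvate carboxykinase, which makes glycerol for triglyceride in fat and glucose in liver and kidney. It had 301 and 836 counts in the hip, or 7.82 and 24.2 CPM, and a log2 ratio of 1.67 (1.48 to 1.87). In the knee it had 367 and 1309 counts, or 10.7 and 34.2 CPM, and a log2 ratio of 1.49 (1.33 to 1.67). Pck1 rose in both joints, which by TMM-scaled ratios was true of no other of the 10 genes. With library size scaling, or after removal of the length and GC trend, it was true of Cfd as well.

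Cyp2e1 (ENSMUSG00000025479, chromosome 7, 140343652 to 140355167) encodes a cytochrome P450 that oxidizes ethanol and other small molecules, abundant in liver and present in fat. Its hip counts were 402 and 1744, or 10.4 and 50.4 CPM, with a log2 ratio of 2.31 (2.16 to 2.47). Its knee counts were 741 and 1510, or 21.6 and 39.5 CPM, with a log2 ratio of 0.69 (0.56 to 0.82). Liver also expresses both enzymes. The 9 liver markers found summed to 2.34 and 0.607 CPM in the hip, against 0.817 and 0.759 CPM in the knee. Alb, the albumin gene, had 17 and 5 counts in the hip, and the knee libraries had 4 and 8. Apoa1, a liver apolipoprotein, was at 0 in both libraries labelled Cbfb-deficient. No liver marker had more than 18 counts in any library, and the part of liver RNA in the values of these enzymes was not tested.

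Pparg (ENSMUSG00000000440, chromosome 6, 115337675 to 115468268) encodes PPARγ, the master regulator named above, which other cells also express. It had 150 and 125 counts in the hip, or 3.90 and 3.61 CPM, and a log2 ratio of -0.06 (-0.42 to 0.29). No difference was detectable at this depth, while after removal of the length and GC trend the ratio was -0.54 (-0.89 to -0.19). In the knee it had 395 and 586 counts, or 11.5 and 15.3 CPM, and a log2 ratio of 0.23 (0.04 to 0.42). Its ratio was the smallest in size of the 10 genes in each joint. After removal of the trend this held in the knee alone, since Adipoq (0.40) and Cidea (-0.40) then had smaller ones in the hip.

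Adrb3 (ENSMUSG00000031489, chromosome 8, 27715443 to 27740925) encodes the β3-adrenergic receptor, which couples sympathetic nerves to lipolysis. It had 38 and 20 counts in the hip, or 0.988 and 0.578 CPM, and its log2 ratio of -0.71 (-1.59 to 0.09) was within counting error. In the knee it rose from 62 to 230 counts, or 1.81 to 6.02 CPM, a log2 ratio of 1.54 (1.14 to 1.98). The noncoding gene Gm45470 shares 2540 of the 5719 exon bases of Adrb3 on the other strand, and it had at most 9 counts in any library. Reads of the pair could not be told apart if counting ignored strand.

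Per kilobase of the canonical transcript, Cfd had the highest level of the 10 genes in every library, from 63.2 CPM per kb in the hip control to 530 CPM per kb in the knee library labelled Cbfb-deficient. Adipoq was next in 3 libraries, and in the hip library labelled Cbfb-deficient it stood in place 3 with 12.9 CPM per kb, behind Cyp2e1 with 23.9. Retn moved from place 8 in the hip control (1.09 CPM per kb) to place 6 (6.75), and Lep from place 9 (0.956) to place 10 (0.0355). At the low end, Lep and Adrb3 held the last 2 places in every library. Their exact Poisson intervals overlapped in the hip library labelled Cbfb-deficient and in the knee control. The intervals of neighbouring genes also overlapped for Cidec and Cyp2e1, Cidea and Pck1, Pparg and Retn, and Retn and Lep in the hip control, for Cidec and Pck1 and for Cidea and Pparg in the other hip library, for Pparg and Pck1 and for Cidea and Lep in the knee control, and for Cyp2e1 and Cidec, Retn and Pck1, and Cidea and Lep in the knee library labelled Cbfb-deficient.

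To set the genes against each other within a library, each count was also divided by that of Adipoq, a comparison that no scaling between libraries affects. In the hip, Lep had 21.5 counts per 100 Adipoq counts in the control (95% interval 17.5 to 26.2) and 0.678 in the other (0.184 to 1.75). Retn had 8.59 (6.26 to 11.5) and 45.3 (39.0 to 52.4). Relative to Adipoq, Lep was thus lower and Retn higher in the hip library labelled Cbfb-deficient. These are ratios of counts and not of levels per length, by which Retn was above Lep in both hip libraries, with overlapping intervals in the control.

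In the knee, Retn had 19.8 counts per 100 Adipoq counts in both libraries, and relative to Adipoq its log2 ratio was -0.00 (exact conditional 95% interval -0.22 to 0.22). Cyp2e1 was as level, with 46.5 and 46.7 and a relative log2 ratio of 0.01 (-0.15 to 0.16). Lep had 4.14 and 7.43, a relative log2 ratio of 0.84 (0.43 to 1.27), and Pck1 had one of 0.82 (0.62 to 1.01). Pparg was lower relative to Adipoq, by -0.45 (-0.66 to -0.24). The knee ratios were therefore unequal, although all 10 had intervals above 0.

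In the hip, relative to Adipoq, Cyp2e1 had a log2 ratio of 2.04 (1.81 to 2.27), Pck1 of 1.40 (1.14 to 1.65) and Cfd of 1.02 (0.84 to 1.20). On the same scale Lep had -4.98 (-6.89 to -3.57) and Cidea -1.32 (-1.79 to -0.85). The hip values thus ran from -4.98 for Lep to 2.40 for Retn, and the knee values from -0.45 for Pparg to 0.93 for Cidea.

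**Figure D3:**
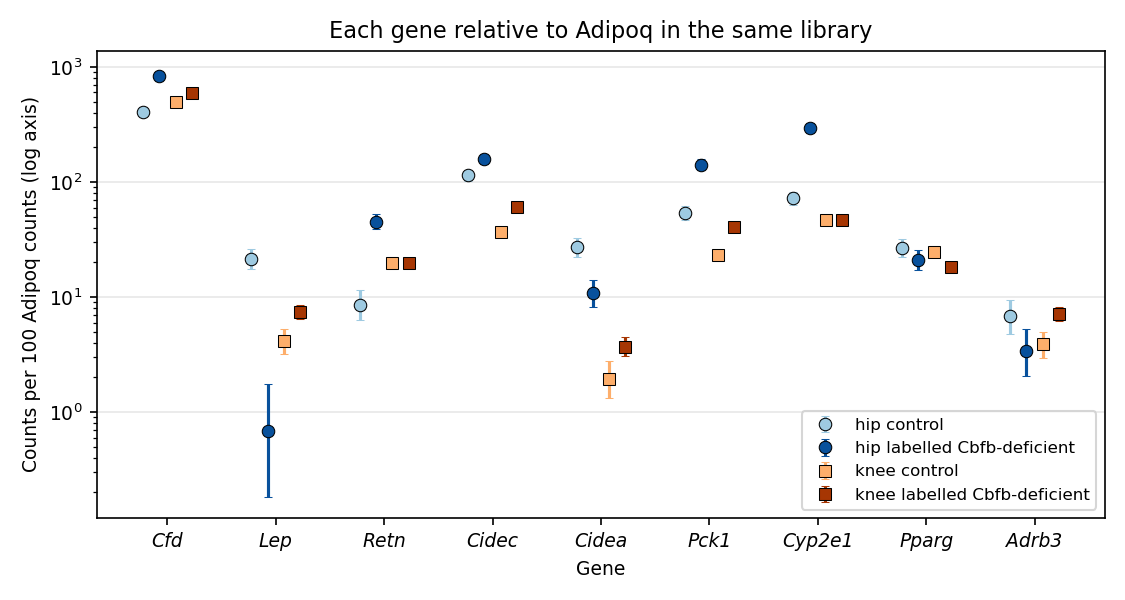
Counts of 9 genes per 100 Adipoq counts of the same library (vertical log axis), with 95% counting intervals as bars and 1 point per library. Retn and Cyp2e1 have the same height in both knee libraries, while in the hip Lep drops from 21.5 to 0.678 and Retn climbs from 8.59 to 45.3.

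The other genes of the fat cell programme were read from 7 lists. Their counts of calls are to be read beside the shares over all genes given above, 20.2% higher and 16.3% lower for the hip, and 9.00% and 6.81% for the knee. Without the trend these shares were 13.6% and 15.5% for the hip, against 9.29% and 5.29% for the knee. Fat storage and lipolysis genes (24 tested) had 5 rises (20.8%) and 7 falls (29.2%) in the hip, with a median log2 ratio of -0.21 beside 0.01 over all genes. After removal of the length and GC trend there were 4 rises and 3 falls. Plin4, a droplet coat protein, rose from 6694 to 30321 counts (log2 ratio 2.38), and Slc7a10, an amino acid carrier of white adipocytes, had 1.95. Plin1, the coat protein that gates lipolysis, fell from 803 to 288 counts (-1.28, and -0.88 without the trend), Mgll, the monoglyceride lipase, had -1.55 and Trarg1, a partner of the insulin-regulated glucose carrier, -1.69. Fabp4, the fatty acid binding protein of fat cells, was higher by 0.80, and by 0.14 without the trend. The share of rises in this list was near that over all genes in the hip, and without the trend so was the share of falls.

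In the knee the same list had 11 rises (45.8%) and no fall among 24 genes, with and without the trend, with a median log2 ratio of 0.88 beside 0.02 over all genes. Plin1 rose from 367 to 2197 counts (2.24) and Aoc3, an amine oxidase of the fat cell surface, from 189 to 987 (2.04). Fabp4 was higher by 0.16, and by 0.54 without the trend. Mgll (-0.31) and Bscl2 (-0.32), which encodes the droplet assembly protein seipin, were lower, with -0.51 and -0.29 without the trend. Muscle markers were also higher in that library. The 10 skeletal muscle markers had a median log2 ratio of 1.01, with 5 rises and no fall, and their part in the adipocyte values was not tested. Chondrocyte markers had a median of -1.62, with 10 falls among 14 genes. In the hip, chondrocyte markers had 1 rise and 5 falls among 13 genes and a median of -0.90, or no rise and 6 falls without the trend. There the muscle markers had 1 rise, 2 falls and a median of -0.33, or 0.22 after removal of the trend.

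Thermogenic fat genes (13 tested in each pair) had 4 rises (30.8%) and 5 falls (38.5%) in the hip, with a median of 0.20. Without the trend there were 2 rises and 5 falls, with a median of -0.30. Ucp1, the uncoupling protein of brown fat, went from 70 counts to 1 between the hip libraries. Its log2 ratio was -5.36 (-11.26 to -3.41), and the 1 count lies below the floor of 3. Otop1, a proton channel found in brown fat, had 67 and 4 counts, a log2 ratio of -3.71. Cpt1b and Ppargc1a, which muscle also expresses, rose by 1.88 and 1.74. Without the trend Cpt1b had 2.21 and Ppargc1a 0.50. Ppara, a fatty acid sensing receptor, rose from 332 to 678 counts (1.23, or 1.36 without the trend). In the knee Ucp1 had 0 and 4 counts, below the minimum for a ratio, and the list had 5 rises and no fall with a median of 0.41. Ppara had 5 and 61 counts there and Zic1, a brown fat transcription factor, 8 and 60. Other members were nearly level in the knee, with log2 ratios of -0.10 for Kng2 (152 and 179 counts), 0.11 for Cox7a1 and 0.12 for Cox8b. The other falls of the list in the hip were Lhx8, a brown fat transcription factor (30 to 2 counts, -3.41 with an interval of -6.82 to -1.73, the 2 counts also below the floor), and Cox7a1 (-1.75) and Cox8b (-1.38), respiratory chain subunits that muscle also expresses, all called without the trend too (-3.20, -1.30 and -1.07). Not all members were lower. Zic1 had 206 and 214 counts (0.25, and -0.30 without the trend), Elovl3, a fatty acid elongase, had 10 and 10, and Dio2, which activates thyroid hormone, rose from 73 to 188 (1.56, and 0.64 without the trend).

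Adipogenic transcription factors (16 genes) had 2 rises and 1 fall in the hip, with a median of -0.27, and no call in the knee, with a median of 0.31. Without the trend the hip had 3 rises and 1 fall, and the medians were -0.08 and 0.11. In the hip Cebpd rose by 2.27 and Klf15 by 1.65, both of which respond to glucocorticoids, and Rxrg, a partner of PPARγ that muscle also expresses, fell by 1.05 on the log2 scale (-0.60 without the trend). Cebpa, which sustains Pparg in mature fat cells, had -0.51 in the hip (-0.00 without the trend) and 0.61 in the knee. The highest knee ratios of the list were those of Zfp423 (0.75) and Klf15 (0.72), and the lowest those of Ebf1 (-0.60) and Cebpd (-0.46). Lipogenic enzymes (12 genes) had 1 rise and 1 fall in the hip, with a median of 0.08, and 3 rises and no fall in the knee, with a median of 0.66. Without the trend the hip had no rise and 2 falls (median -0.02), and the knee 2 rises and no fall (0.50). Scd1, the stearoyl-CoA desaturase, stood out, with 6249 and 741 counts in the hip (-2.88), against 6227 and 21747 in the knee (1.46). Scd1 thus moved in the direction of Lep in each joint. Acaca went the other way in the hip, with 728 and 1402 counts (1.14, or 0.52 without the trend). Acacb rose in the knee from 640 to 1861 counts (1.20, or 0.92 without the trend).

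Receptors for adipokines and catecholamines (12 genes) had 3 rises (25.0%) and 2 falls (16.7%) in the hip, with a median of 0.07, and 2 rises and no fall in the knee, with a median of 0.24. The hip shares were near those over all genes, and without the trend there were 2 rises and no fall in the hip and 1 rise and no fall in the knee. The adiponectin receptors are widely expressed, and Adipor1 had 426 and 357 CPM in the hip, against 357 and 420 CPM in the knee. Adipor2 had 167 and 175 CPM in the hip, against 61.2 and 113 CPM in the knee. Lepr, the leptin receptor, had 9.25 and 14.9 CPM in the hip (log2 ratio 0.73, or 0.33 without the trend) and 25.8 and 31.7 CPM in the knee, where its ratio of 0.12 was within counting error. Lepr was therefore not lower where its ligand was. Insr, the insulin receptor, rose in the hip by 2.06, or 1.24 without the trend, and Tlr4, a receptor of innate immunity, by 1.83, or 0.76 without it. Cmklr1, the chemerin receptor, had opposite calls in the joints, with 422 and 151 counts in the hip (-1.28), against 163 and 568 in the knee (1.46). Its hip ratio was -0.96 without the trend, and that call was then lost. Cdh13, which binds adiponectin, rose by 1.01 in the knee (0.89 without the trend), and Adra2a, an adrenergic receptor that restrains lipolysis, went from 45 to 17 counts in the hip (-1.18, and -0.78 without the trend).

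Other secreted factors (14 genes, 13 tested in the hip) had 3 rises and 5 falls in the hip, with a median of -0.56, and 2 rises and 1 fall in the knee, with a median of 0.20. Without the trend the hip had 3 rises and 3 falls (median -0.36), and the knee 3 rises and 1 fall (0.14). Apln, which encodes the peptide apelin, fell in the hip from 62 to 9 counts (-2.52), and Metrnl, a factor secreted by fat and muscle, had -1.55. Vegfa, the vascular growth factor, and Nampt, which makes a precursor of NAD, rose by 1.29 and 1.28, and Nampt had 0.18 without the trend. In the knee Sfrp5, a secreted Wnt inhibitor of fat, rose by 1.38 and Nrg4, a growth factor of brown fat, by 1.29. Preadipocyte and fibroblast genes (9 genes) had no rise and 2 falls in the hip, with a median of -0.23, and no call in the knee, with a median of 0.25. Without the trend the calls had the same numbers, while the medians were -0.82 and -0.01. The falls were Dlk1, which holds back adipogenesis, from 291 to 41 counts, and Pi16, a fibroblast marker, from 2550 to 523. The highest hip ratio of this list was that of Pdgfra, with 556 and 890 counts. It was 0.88 (0.72 to 1.03), under the size for a change, and 0.26 without the trend.

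**Figure D4:**
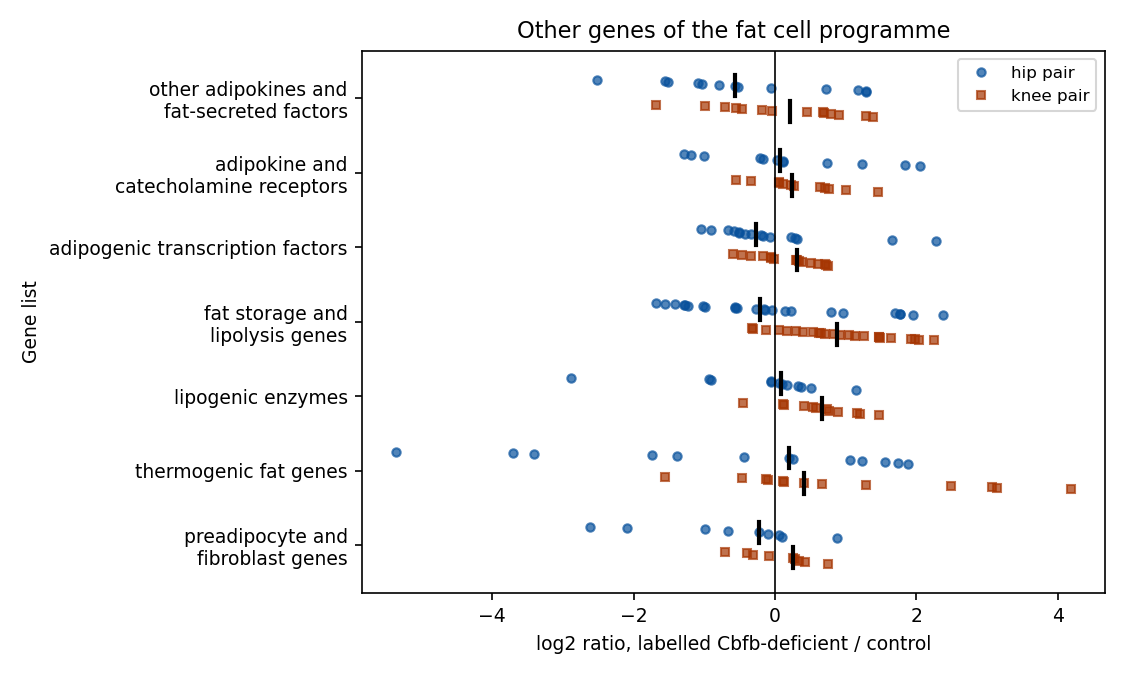
Log2 ratio of the library labelled Cbfb-deficient to its control (horizontal axis) for each tested gene of 7 fat-related lists, hip as circles and knee as squares, with a black bar at each median. Fat storage genes have a median of -0.21 in the hip and 0.88 in the knee, and the thermogenic list reaches down to -5.36 in the hip, for Ucp1, whose 1 count in the library labelled Cbfb-deficient lies below the floor of 3.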

How the data were processed

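The authors deposited whole-number read counts per Ensembl gene, 1 table per library, without normalization. The study's methods name STAR and GRCm39, while the submitters' processing notes name mm10. The hip tables close with summary lines of the HTSeq kind, which held 25.8% and 24.6% of the reads listed and were left out. The knee tables have no such lines, and their counting program is not given in the sources used here. GENCODE vM39 (GRCm39) gave symbols, places and canonical transcript lengths for 91.8% of hip and 92.6% of knee identifiers. Promoter windows were from RefSeq.

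Counts were scaled within each pair by TMM (edgeR 4.0.16, R 4.3.3), with library size and DESeq2 1.42.0 size factors as alternatives. Intervals were 95% Clopper-Pearson intervals of the split of counts. A floor of 3 counts equals 0.0780 to 0.0876 CPM. For the trend alternative, genes were split into 20 bins by length, and each bin's median ratio was subtracted. The same was done by GC content, and both steps were run 2 times. Ratios to Adipoq carry exact intervals. The steps were tested on simulated counts. Python 3.11.15, numpy 2.4.6, pandas 2.3.3, scipy 1.17.1 and matplotlib 3.10.9 were used.

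The 10 members and the lists were chosen with earlier results of these data known. Named from a list were the 2 highest and 2 lowest ratios among those with 50 or more counts in the pair, plus Plin1, Fabp4, Cebpa, Ucp1, Lepr, Adipor1 and Adipor2. Alb, Apoa1, Dio2, Elovl3, Lhx8 and Cox8b, and Zic1, Cox7a1 and Ppara in the hip, were named after their values were seen. Marker lists of other cell types were read as shares of counts and by their calls and medians.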

Additional observations from a re-analysis of the deposited data

Results flagged for a closer look

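Lep and Cidea had ratios on opposite sides of 0 in the joints, each with a counting interval that excluded 0. For Lep the log2 ratio was -4.55 in the hip and 1.52 in the knee. For Cidea it was -1.03 in the hip and 1.60 in the knee. After removal of the length and GC trend the hip ratio of Cidea was -0.40, with an interval of -0.85 to 0.02, which includes 0, and its call was lost. With 1 library per condition the difference between joints was not tested, and the joints also differ in age, Cre driver, control treatment and the set of genes counted, so these cannot be told apart.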

How the results depend on the processing

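No paired analysis was possible because each comparison, made within a joint, has 1 library per condition, and no library could be left out. A fit over both joints with joint as a block, which would average over different Cre lines and controls, was not run. Of the 10 genes, 6 changed in the hip, and 5 to 8 did under the alternatives. In the knee 5 changed, and 5 or 6 did except when a ratio of any size with an interval beyond 0 was enough, which gave 10. Where each library had to reach 10 counts, Lep was not tested in the hip. Removing the length and GC trend ended the hip call of Cidea (-0.40), and both that removal and library size scaling added Cfd in the knee. No ratio of the 10 genes in either pair that was called changed sign under any alternative. The trend removal moved 10 of 20 ratios beyond their counting intervals, and library size scaling 5 of 20. The knee median of the fat storage list was 1.06 with library size scaling, which raises every knee ratio by construction. Genes near the floor, such as Lep in the hip, are limited by depth.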

Other observations

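Of 11964 genes that reached 100 counts in each pair, those with the most similar profile to Lep, by Euclidean distance of centred log2(CPM + 1) over the 4 libraries, were Gdf10, Pcsk6, Fcrl2, Ssc5d and Il27ra. Their hip log2 ratios ranged from -4.24 for Il27ra to -1.47 for Pcsk6, and their knee ratios from 0.66 for Il27ra to 1.19 for Ssc5d. Those most like Retn were Eeig2, Paxbp1, Washc4, Trim33 and Braf. Their hip log2 ratios ranged from 2.13 for Eeig2 to 2.59 for Braf. After removal of the length and GC trend these ranged from 0.92 for Washc4 to 1.96 for Paxbp1, while that of Retn was 3.0. The 4 libraries are all the points behind each profile, and the neighbours were picked on those values, so their directions follow from the choice. Adding 1 also shrinks the hip fall of Lep, which had 3.12 and 0.116 CPM and a log2 ratio of -4.55. Its neighbours therefore match a compressed profile.

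Markers of other cell types are given as rises and falls by the same rule of change, beside 20.2% higher and 16.3% lower over all genes for the hip, and 9.00% and 6.81% for the knee. Osteoblast markers (10 genes) had 1 rise and 5 falls in the hip (no rise and 5 falls after removal of the length and GC trend), and 5 falls in the knee both ways. Macrophage markers (8 genes) had 1 rise and 5 falls in the hip, with a median log2 ratio of -1.12, or no rise and 3 falls and -0.64 without the trend, and no call in the knee. Neutrophil markers (10 genes) had 2 rises in the hip and no call in the knee, and endothelial markers (8 genes) had no call in either joint, with or without the trend. Erythroid markers (9 genes) had 4 falls in each joint, or 3 in the hip and 1 in the knee without the trend. Their part in the adipocyte values was not tested.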
